A study of Mus musculus with 6 samples.

Results

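Aminoacyl-tRNA synthetases are the enzymes that load each amino acid onto its own tRNA. The genes examined were those whose array probe sets carry a single platform gene symbol of the synthetase form (a 1-letter amino acid code followed by "ars", with or without a final 1 or 2, and Farsa, Farsb and Eprs). This rule used names and no measured value, and it found 26 genes of the 12393 represented on the array. Of these, 18 encode cytosolic enzymes, including Gars and Kars, whose products serve both compartments, and 8 encode mitochondrial enzymes. Each gene was read from its probe set (a group of short probes for 1 transcript) with the highest mean signal over the arrays.

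The study compared colon epithelium from mice on standard chow and from mice whose chow contained 0.4% ursodeoxycholic acid (UDCA), a bile acid that is prescribed for liver disease. RNA of 2 animals was pooled for each array, so that 6 control mice gave 3 arrays and 6 UDCA mice gave 3 arrays, each pool being named by its 2 animals (1+2, 3+4 and 5+6 in either group). Strain, age, sex and length of feeding were not given in the sources used here, and the labels add the tag IEC-6, a rat intestinal cell line, beside the mouse tissue. Signals below are intensities after the 6 arrays were brought to a common distribution by quantile normalization. This was done because the deposited medians ran from 67.4 to 84.0 on the control arrays and from 68.2 to 87.3 on the UDCA arrays.

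The labelled tissue was checked against marker genes. All 10 measured colon epithelial markers and all 4 goblet cell markers lay above the filter on low signals, which began at a signal of 76.0. None of the 10 leukocyte markers did, and their summed signal was 114 to 134 on the control arrays and 121 to 177 on the UDCA arrays. The 5 fibroblast, 5 smooth muscle, 4 endothelial and 6 pancreatic acinar markers were all below the filter as well.

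A synthetase first activates its amino acid with ATP and then transfers it to the tRNA, and several of these enzymes remove wrongly attached amino acids. In the cytosol of animal cells a group of synthetases is held together with scaffold proteins in the multisynthetase complex, while the others act outside it. Mitochondria import a separate set that is encoded by nuclear genes. Many cytosolic synthetase genes are textbook targets of ATF4, the transcription factor of the amino acid response, which binds composite C/EBP-ATF elements near their start sites and near that of Asns, the gene of asparagine synthetase.

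Because such elements are known in synthetase promoters, RefSeq windows from 250 bases before to 50 bases after a transcript start (mouse build GRCm38.p6) were searched for TGATGNAA on both strands. The start of a window is that of 1 transcript and need not be the outer end of the gene record: among the genes shown it is the same position in Gars, Iars, Tars and Asns, but lies 6064 bases inside the record in Aars and 169 bases inside it in Yars. Windows were found for 17 of the 26 genes, 11 cytosolic and 6 mitochondrial. The motif was present in 5 of them (29.4%), Aars, Gars, Iars, Tars and Yars, and in 4.51% of the 27025 genes with a window. None of the 6 mitochondrial windows held it. Among the windows without a match, the start lay 1627 bases inside the gene record in Eprs and 1388 bases inside it in Tars2. The outer ends of these 2 gene records were not searched. The stretches below show each match in capitals with up to 40 bases on each side, ending at most 30 bases after that transcript start, written 5′ to 3′ along the gene's own strand. The first Aars match begins 112 bases before its transcript start (chr8:111033690-111033777, plus strand) and the second at base 10 after it (chr8:111033811-111033871, plus strand). The other matches begin 30 bases before the start in Gars (chr6:55037931-55038018, plus strand), at base 8 after it in Iars (chr13:49682097-49682159, plus strand), 15 bases before it in Tars (chr15:11399629-11399713, minus strand) and at base 4 after it in Yars (chr4:129189866-129189932, plus strand). Asns, whose match begins 23 bases before the start (chr6:7693185-7693272, minus strand), is shown as the reference gene of the amino acid response. A match describes the letters of the window and was not tested as a binding site.
Aars, first match: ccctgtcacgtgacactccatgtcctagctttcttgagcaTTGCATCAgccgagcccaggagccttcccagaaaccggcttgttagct
Aars, second match: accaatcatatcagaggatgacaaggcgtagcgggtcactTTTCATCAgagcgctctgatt
Gars: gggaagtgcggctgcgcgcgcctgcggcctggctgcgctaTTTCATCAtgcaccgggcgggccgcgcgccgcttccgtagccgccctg
Iars: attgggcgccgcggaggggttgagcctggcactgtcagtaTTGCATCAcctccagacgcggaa
Tars: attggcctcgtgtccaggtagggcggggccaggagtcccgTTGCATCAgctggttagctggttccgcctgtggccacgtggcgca
Yars: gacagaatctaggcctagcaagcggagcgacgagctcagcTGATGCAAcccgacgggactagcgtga
Asns: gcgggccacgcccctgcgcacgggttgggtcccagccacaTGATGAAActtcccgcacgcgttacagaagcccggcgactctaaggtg

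No synthetase gene passed the test between the diets. Of the 26 genes, 25 lay above the filter on low signals, and limma's moderated test, with Benjamini-Hochberg adjustment over all 11313 probe sets tested, gave adjusted p-values of 0.296 or more for them. At a threshold of 0.05 the same test passed 0.00884% of all probe sets. At an unadjusted p under 0.05 it listed 8 synthetase genes, all higher on the UDCA diet (Cars, Aars, Rars, Yars, Farsa, Wars, Iars and Gars), where 6.98% of all probe sets were listed as higher and 6.67% as lower. Counted in either direction, the 8 became 3 without the pool control 1+2, 4 without the pool UDCA 3+4 and 5 without the pool control 3+4. The count was 6 without the pool UDCA 1+2, 7 without the pool UDCA 5+6 and 9 without the pool control 5+6. In the same order, 762, 1167, 959, 935, 1921 and 2090 of all 11313 probe sets were listed, against 1545 with all arrays. The 3 UDCA pools lay wholly above the 3 control pools in 13 of the 25 genes and wholly below them in none, against 10.9% and 8.34% of all probe sets. That count depends on the scaling, because on the signals as deposited it was 0 of 25, with 3.72% of all probe sets higher without overlap. The median log2 difference of the 25 genes was 0.17, with 16 positive, beside a median of 0.01 and 51.3% positive over all probe sets tested. In tissue RNA of this kind, a change in the number of cells of a type and a change in RNA per cell cannot be told apart.

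**Figure D1:**
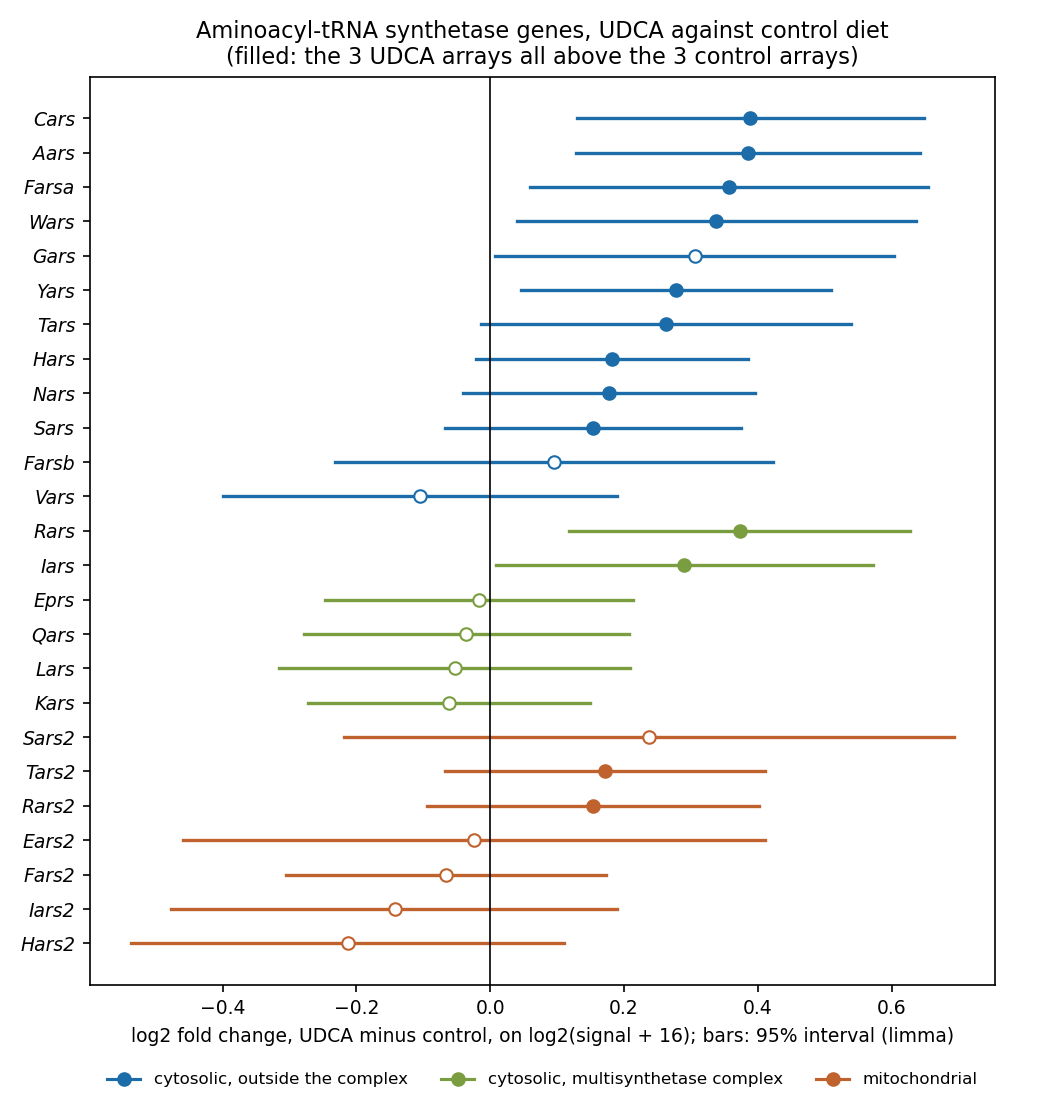
Differences between the diets in the synthetase genes, as log2 UDCA minus control on the horizontal axis, with points at the fitted value and bars for the 95% interval, filled where the UDCA pools all lie above the control pools, grouped into cytosolic enzymes outside and inside the multisynthetase complex and mitochondrial enzymes. Differences run from -0.21 for Hars2 to 0.39 for Cars, and the intervals of 8 cytosolic genes lie above 0.

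Aars, the alanyl-tRNA synthetase with both promoter matches above, had signals of 339.9, 343 and 384 in the control pools and 512, 475 and 423 in the UDCA pools. Every UDCA pool was above every control pool. The difference was 0.39 on the log2 scale (SE 0.11, 95% interval 0.13 to 0.64, n = 3 pools against 3, limma adjusted p = 0.298). A further probe set of Aars gave 0.38. On the signals as deposited the Aars values were 287, 334 and 422 against 512, 555 and 393, and there the pool UDCA 5+6 lay below the pool control 5+6.

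Cars, the cysteinyl-tRNA synthetase, read 194, 180.3 and 203 in the control pools and 287, 245 and 240.1 in the UDCA pools. All UDCA pools were the higher ones, and pool 1+2 was the highest of them. Its log2 difference was 0.39 (SE 0.11, adjusted p = 0.296 by limma), the largest of the 25 genes. Rars, which encodes the arginyl enzyme of the multisynthetase complex, had control signals of 674, 667 and 746 and UDCA signals of 860, 1026 and 837. Here the pool UDCA 3+4 stood highest, and the groups did not overlap. The Rars difference was 0.37 (SE 0.11, limma adjusted p = 0.301).

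Yars, the tyrosyl-tRNA synthetase, had 268, 297 and 304 in the control pools and 341, 363 and 358 in the UDCA pools. The UDCA pools lay close together and above all control pools. The log2 difference was 0.28 (SE 0.10, limma adjusted p = 0.318). Farsa, the catalytic subunit of the cytosolic phenylalanyl enzyme, had 129, 129.8 and 143 against 206, 156 and 169. Its groups did not overlap, with the pool UDCA 1+2 well above the rest, and the difference was 0.36 (SE 0.13, limma adjusted p = 0.318). Farsb, the other subunit of the same enzyme, read 682, 594 and 724 in the control pools and 595, 845 and 714 in the UDCA pools. The Farsb groups overlapped, the difference was 0.10 (SE 0.14), and without the pool UDCA 3+4 it was -0.03.

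Wars, the tryptophanyl-tRNA synthetase, is also known as an interferon-inducible gene. Its signals were 504, 635 and 676 in the control pools and 796, 799.5 and 699 in the UDCA pools. The lowest UDCA pool, 5+6, was just above the highest control pool, 5+6. The log2 difference was 0.34 (SE 0.13, limma adjusted p = 0.330), and the 3 further probe sets of Wars gave 0.37, 0.37 and 0.45. A list of 19 other genes known to respond to interferon gamma was read alongside: 13 were above the filter, their median log2 difference was -0.61, and none passed the test. The pool control 5+6 stood apart in this list, as it was the highest control pool in 12 of the 13 genes and over 1.5 times the next control pool in 7 (Gbp7, Psmb9, Tap1, Cxcl10, Irgm1, Igtp and Iigp1, named after their values were seen). None of the 13 differences was positive with all arrays, whereas without the pool control 5+6 there were 4 positive ones and the median was -0.08. In that list 6 genes had an unadjusted p under 0.05 and a negative difference (6.67% of all probe sets), and 4 had UDCA pools wholly below the control pools (8.34% of all probe sets). Irf1, an interferon-induced transcription factor, had 968, 843 and 1078 in the control pools and 546, 531 and 621 in the UDCA pools, a log2 difference of -0.75 (SE 0.12, limma adjusted p = 0.265). Without the pool control 5+6 the Irf1 difference was -0.66. The other 3 genes of smallest p gave -1.56 for Gbp2, -1.38 for Gbp7 and -0.47 for Tap2, and -1.43, -1.02 and -0.41 without that pool, the first pair being interferon-induced GTPases and Tap2 a peptide transporter. Gbp2 and Gbp7 passed the test on the signals as deposited, and no other gene of the partner lists did. Whether the values of Wars and of these genes are linked was not tested.

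Iars, the isoleucyl enzyme of the complex, had 509, 484 and 549.8 in the control pools and 593, 739 and 574 in the UDCA pools. The groups did not overlap, and the pool UDCA 3+4 was the highest. The difference was 0.29 on the log2 scale (SE 0.12, limma adjusted p = 0.359). Gars, the glycyl enzyme of cytosol and mitochondria, had 707, 651 and 873 against 954, 976 and 826. The pool UDCA 5+6 was below the pool control 5+6, so these groups overlapped, and the difference was 0.31 (SE 0.13, limma adjusted p = 0.359).

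In 4 more cytosolic genes the UDCA pools were all above the control pools while the 95% interval of the difference included 0. Tars, the threonyl enzyme, had 547, 479 and 636 in the control pools and 644, 689.9 and 659 in the UDCA pools, a difference of 0.26 (SE 0.12, limma adjusted p = 0.383). Hars, the histidyl enzyme, had 757, 730.3 and 761 against 843, 887 and 827, a difference of 0.18 (SE 0.09, limma adjusted p = 0.395). In Tars the margin between the groups was narrow, and in Hars the control pools lay close together. Nars, the asparaginyl enzyme, had 1505, 1300 and 1438 against 1741, 1521 and 1545, a difference of 0.18 (SE 0.10, limma adjusted p = 0.426). Sars, the seryl enzyme, had 678, 751 and 734 against 848, 757 and 806, a difference of 0.15 (SE 0.10, limma adjusted p = 0.489). For both of these the lowest UDCA pool was only slightly above the highest control pool.

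**Figure D2:**
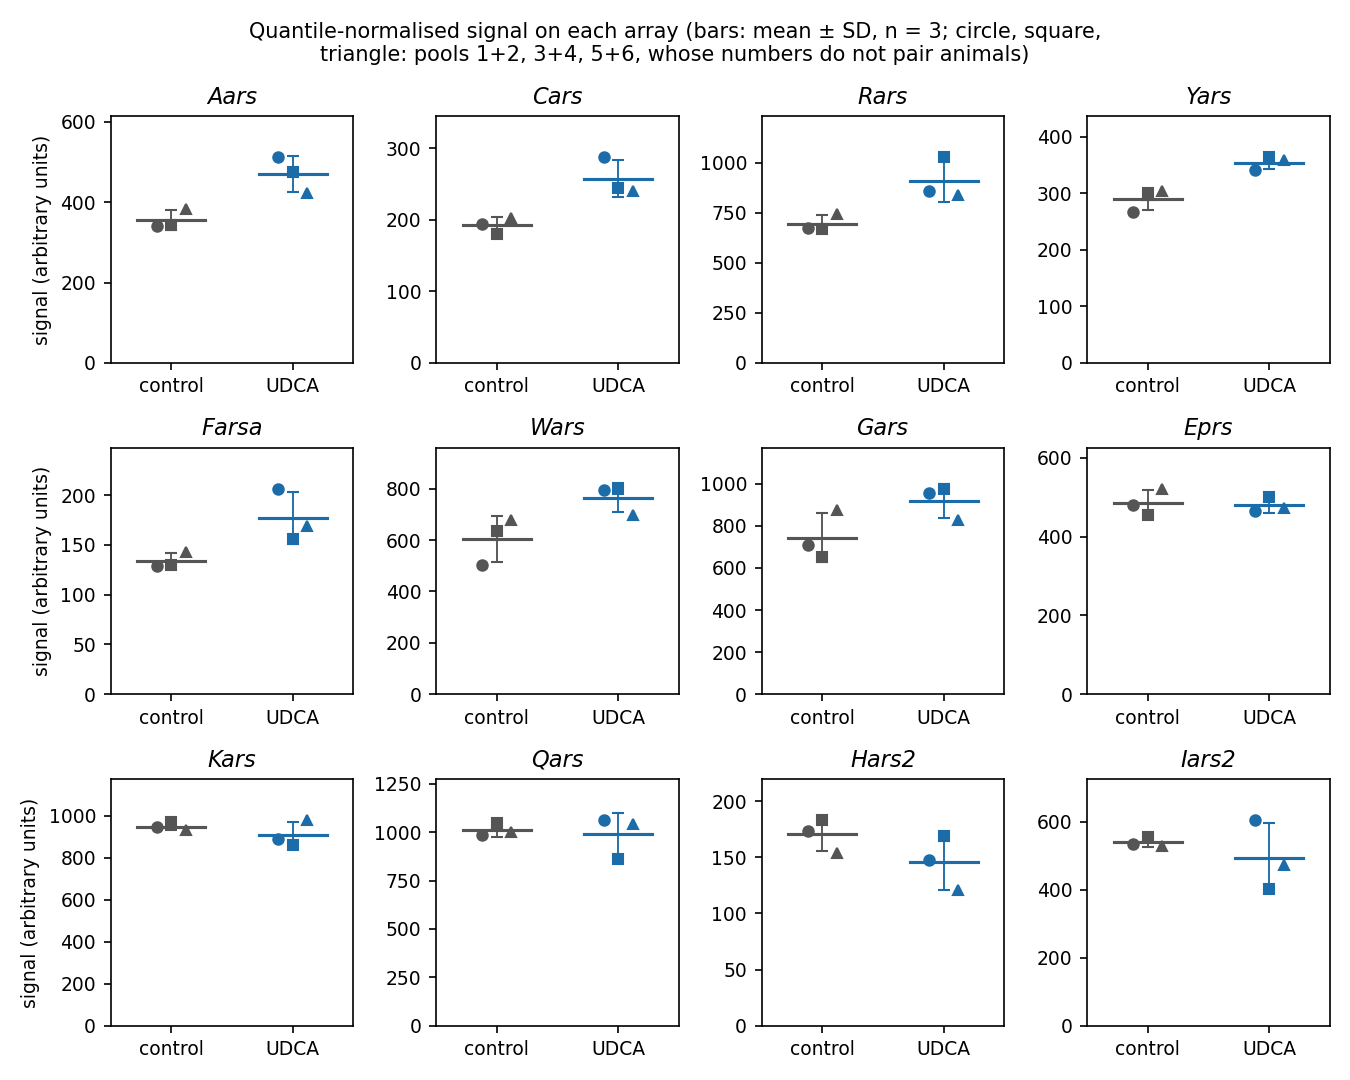
Normalized signals (arbitrary units, vertical axes from 0) of 12 synthetase genes, with 1 panel per gene, the 3 control and 3 UDCA pools as points, and bars for the mean ± SD of each group. In Aars the UDCA pools at 423 to 512 lie above the control pools at 339.9 to 384, and in Gars the UDCA pool at 826 lies below the control pool at 873.

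The remaining cytosolic genes showed differences near 0 with overlapping groups. Vars, the valyl enzyme, had 354, 358 and 426 in the control pools and 345, 311 and 400.2 in the UDCA pools, a log2 difference of -0.11 (SE 0.13). The other 4 belong to the multisynthetase complex: Eprs, the joined glutamyl and prolyl enzyme, differed by -0.02 (SE 0.10), Qars, the glutaminyl enzyme, by -0.04 (SE 0.11), Lars, the leucyl enzyme, by -0.05 (SE 0.12) and Kars, the lysyl enzyme, by -0.06 (SE 0.09). Eprs had 479, 456 and 521 in the control pools against 464, 499 and 473 in the UDCA pools, and Kars had 947, 969 and 932 against 889, 862 and 979.8. In both genes the range of one group lay within that of the other. Lars had 438, 369.7 and 350.3 against 351, 380.4 and 379, with the pool control 1+2 above the rest, and Qars had 984, 1049 and 999.6 against 1062, 863 and 1042, with the pool UDCA 3+4 below the rest. The 4 differences are negative after quantile normalization and after scaling to a common trimmed mean, and positive (0.02 to 0.08) on the signals as deposited or scaled to a common median. Another Qars probe set, of the Affymetrix x_at kind whose probes may also bind other transcripts, gave -0.58 (unadjusted p = 0.0789 by limma).

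The cytosolic genes were therefore set out by membership of the complex, a split made after the values had been seen and given without a test. Of the 6 complex members measured here (Eprs, Iars, Kars, Lars, Qars and Rars), 2 had a positive difference and UDCA pools wholly above the control pools, and the median was -0.03. Of the 12 other cytosolic genes, 11 had a positive difference, 9 had groups that did not overlap, and the median was 0.27. UDCA pools lay wholly above the control pools in 10.9% of all probe sets, and on the signals as deposited in no synthetase. As deposited or scaled to a common median, 17 of the 18 cytosolic genes were positive, so that the contrast in sign was absent. Averaged over those 12 genes and set against the control mean, the log2 values were -0.05, -0.06 and 0.11 in the control pools and 0.27, 0.24 and 0.20 in the UDCA pools. The same averages over the 6 complex genes were 0.01, -0.03 and 0.02 against 0.05, 0.12 and 0.08. Among the 12, the highest array was UDCA 1+2 in 5 genes, UDCA 3+4 in 6 and control 5+6 in 1.

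Mitochondrial enzymes showed no common direction. Of the 7 tested, 3 had a positive and 4 a negative difference, and none was listed at an unadjusted p under 0.05. The median was -0.02, which became 0.01 on the signals as deposited and 0.064 without the filter. With the mean of all probe sets of a gene the mitochondrial median was 0.058, over 6 genes. This median was 0.107 without the pool control 5+6, 0.115 without the pool UDCA 5+6 and -0.097 without the pool control 1+2. Tars2, the threonyl enzyme, had 229, 220.3 and 226 in the control pools and 250.3, 279.5 and 238 in the UDCA pools, a log2 difference of 0.17 (SE 0.11, limma adjusted p = 0.478). Rars2, the arginyl enzyme, had 483, 407 and 481 against 493, 535 and 498, a difference of 0.15 (SE 0.11, limma adjusted p = 0.536). These were the only 2 mitochondrial genes whose groups did not overlap. Sars2, the seryl enzyme, had 117, 115 and 84.2 against 91.2, 144 and 151, and its difference of 0.24 (SE 0.20) came with overlapping pools. The other 4 were negative, at -0.02 (SE 0.19) for Ears2, the glutamyl enzyme, -0.07 (SE 0.11) for Fars2, the phenylalanyl enzyme, -0.14 (SE 0.15) for Iars2, the isoleucyl enzyme, and -0.21 (SE 0.14) for Hars2, the histidyl enzyme. Hars2 had 174, 183 and 154 in the control pools and 147, 169 and 121 in the UDCA pools, while Iars2 had 535, 554.5 and 529.5 against 605, 403 and 474. Both groups of 3 overlapped in each of these genes. Fars2 had 359, 384 and 383 against 344, 338 and 393, and Ears2 had 72.6, 73.0 and 106 against 99.4, 82.8 and 64.03, close to the filter and likewise with overlap. Pars2, the prolyl enzyme, was below the filter at 63.0 ± 11.97 in the control pools and 74.7 ± 14.4 in the UDCA pools (SD, n = 3) and was not tested.

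The median log2 difference was 0.22 for the 18 cytosolic genes, of which 13 were positive. In 11 the UDCA pools lay wholly above the control pools, against 10.9% of all probe sets. As deposited 17 were positive and 0 had such groups, and with a common median 17 were positive. The cytosolic median exceeded the mitochondrial one by 0.25. This gap was 0.12 without the pool UDCA 5+6, 0.14 without the pool control 5+6 and 0.16 with the filter removed. Averaged per array, the cytosolic genes stood at -0.03, -0.05 and 0.08 in the control pools and at 0.20, 0.20 and 0.16 in the UDCA pools, and the mitochondrial genes at 0.01, -0.01 and 0.00 against 0.02, 0.05 and -0.03. After quantile normalization the cytosolic average was thus higher in every UDCA pool than in any control pool. The mitochondrial average of the pool UDCA 5+6 was the lowest of the 6. The cytosolic order depends on the scaling. On the signals as deposited the pool UDCA 5+6 lay below the pool control 5+6 in every cytosolic gene, as at 765.5 against 948.8 in Gars and 434.1 against 565.8 in Eprs.

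**Figure D3:**
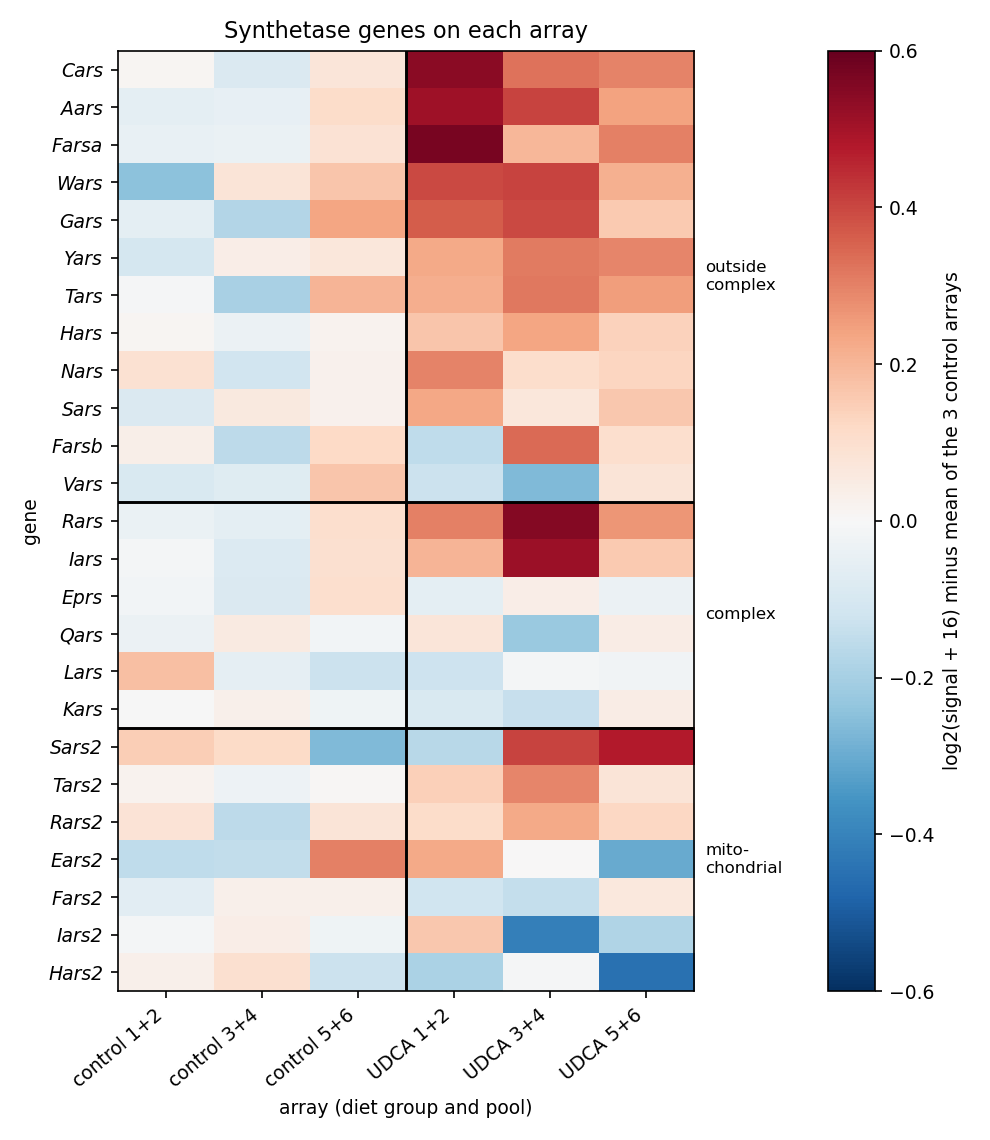
Log2 signal of each synthetase gene (rows) on each of the 6 arrays (columns), as the difference from that gene's control mean, in blue where lower and red where higher. After quantile normalization the 3 UDCA columns are all higher than the 3 control columns in 13 of the 25 tested genes, 11 of them cytosolic. The share over all probe sets is 10.9%.

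For 7 pairs of a cytosolic and a mitochondrial enzyme of the same amino acid, the difference between their responses was tested over the pools with an exact two-sided permutation test, which cannot go below 0.1 with 3 pools against 3. The cytosolic response exceeded the mitochondrial one by 0.40 for Hars over Hars2, by 0.42 for Farsa over Fars2 and by 0.22 for Rars over Rars2, each with an exact p of 0.1 and 0.233 after adjustment over the 7 pairs. For Iars over Iars2 the excess was 0.43 (exact p = 0.2). For Farsb over Fars2, Tars over Tars2 and Sars over Sars2 it was 0.16, 0.09 and -0.08 (exact p = 0.6, 0.5 and 0.8). No pair passed a threshold of 0.05, and none could have done so with this number of pools.

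The promoter matches shown above were set beside the differences. The 5 cytosolic genes with a match had a median log2 difference of 0.29, and the 6 cytosolic genes with a window and no match had a median of 0.04. The genes without a match include Eprs, Kars and Qars of the multisynthetase complex, and those with a match only Iars. This split thus coincides in part with that by membership of the complex, and neither split was tested apart from the other. Inside the complex, Iars with a match differed by 0.29, and Eprs, Qars and Kars without one by -0.02, -0.04 and -0.06. Outside it, Aars, Gars, Yars and Tars with a match differed by 0.39, 0.31, 0.28 and 0.26. Farsa, Sars and Farsb, outside it and without a match, differed by 0.36, 0.15 and 0.10. The Farsa difference was larger than those of Gars, Iars, Tars and Yars. Cytosolic genes with no window stand in neither group. These were Cars, Rars and Wars, with differences of 0.39, 0.37 and 0.34, Hars and Nars, with 0.18 each, and Lars and Vars, with -0.05 and -0.11. The groups with and without a match were formed after the values had been seen and were not tested. Asns, the reference gene with a match of its own, had 372, 330.4 and 419.9 in the control pools and 536, 509 and 522 in the UDCA pools. All UDCA pools were above all control pools, by 0.47 on the log2 scale (SE 0.11, 95% interval 0.21 to 0.73, limma adjusted p = 0.265). Atf4, whose transcript encodes the factor itself, had 1677, 1768 and 1795 in the control pools and 1800, 1528 and 1212 in the UDCA pools, and these groups overlapped. Its difference was -0.22 (SE 0.14, 95% interval -0.53 to 0.09, limma adjusted p = 0.475), with an interval that includes 0. The array measured this mRNA and not the protein, and a role of ATF4 in these values was not tested.

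The wider amino acid response was described from 32 measured genes, of which 26 were above the filter. None of them passed the test, 15 had a positive difference, and their median was 0.06. At an unadjusted p under 0.05, 6 were higher and 2 lower, against 6.98% and 6.67% of all probe sets, so that the lower ones were near the background share. Besides Asns, the genes of smallest p were Shmt2, a mitochondrial enzyme of one-carbon metabolism, at 0.46, Phgdh, an enzyme of serine synthesis, at 0.67 with overlapping groups, and Nupr1, a stress-induced nuclear protein, at -0.61 (limma adjusted p = 0.265 for Nupr1 and Shmt2 and 0.314 for Phgdh). Nupr1 had 1889, 1835 and 1997 in the control pools and 1477, 984 and 1331 in the UDCA pools, so that it lay wholly on the other side from Asns. The other genes listed as higher were Psat1 at 0.415, Mthfd2 at 0.47 and Cth at 0.35, and of these only Cth had overlapping groups. Slc1a5 was the other gene listed as lower, at -0.37 without overlap. Ddit3, another transcription factor gene of the stress response, differed by 0.03. Chac1 and Trib3, which are textbook targets of the same response, were below the filter, as were Slc7a1, Slc7a5, Slc7a11 and Stc2.

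**Figure D4:**
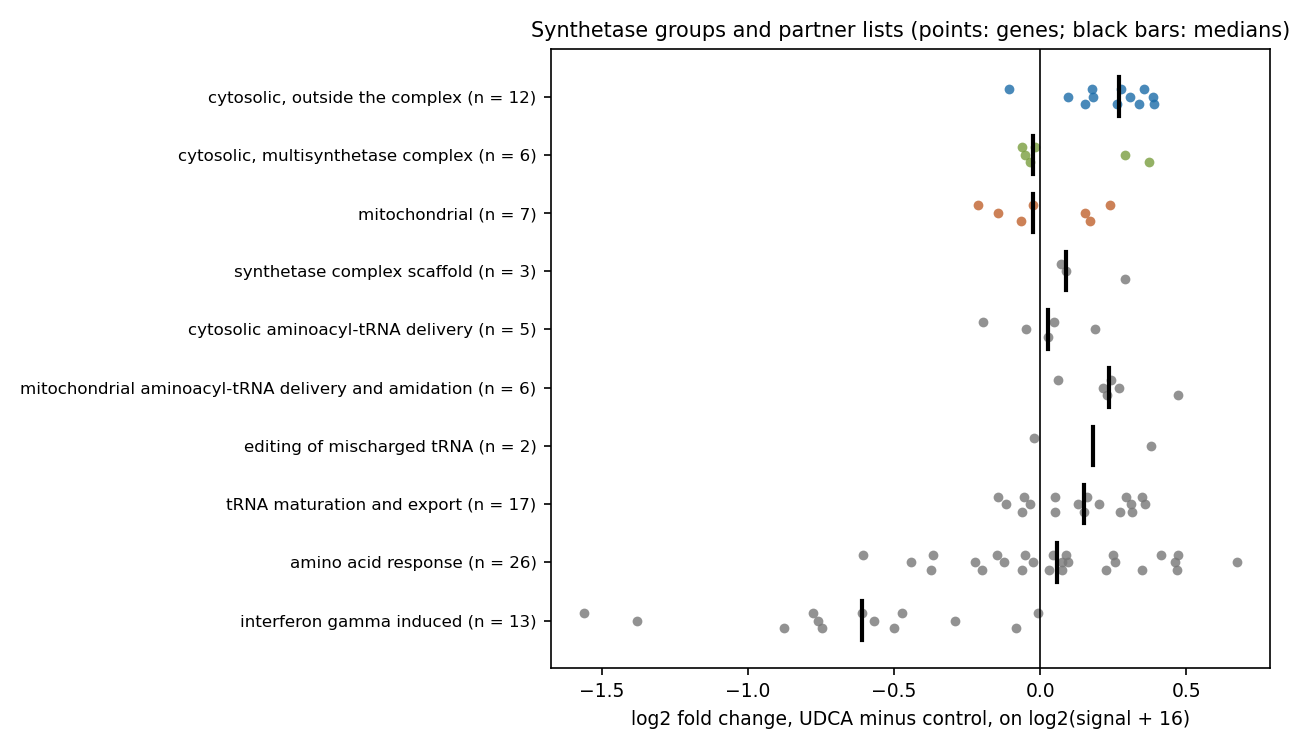
Log2 differences, UDCA minus control, of the genes in each list on a common axis, with 1 point per gene above the filter and a black bar at the median of each list. The medians are 0.27 for the cytosolic synthetases outside the complex, -0.03 for those inside it, -0.02 for the mitochondrial ones and -0.61 for the genes known to respond to interferon gamma (-0.08 without the pool control 5+6).

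Genes that work with the synthetases were read in the same fit, and none passed the test. All 3 scaffold proteins of the complex had positive differences, at 0.29 for Eef1e1 (SE 0.13, limma adjusted p = 0.359), 0.09 for Aimp2 and 0.07 for Aimp1, and none had groups without overlap. Eef1e1 had 409, 385 and 492 in the control pools and 544, 562 and 476 in the UDCA pools, so that one UDCA pool lay below one control pool. Of 5 cytosolic factors that bring the loaded tRNA to the ribosome or move it there, 3 were positive with a median of 0.03, and the 4 of smallest p were Eef1d at 0.19, Eef1a2 at -0.20, Eef1b2 at 0.05 and Eef2 at -0.05. Of 3 editing genes, 2 were above the filter: Aarsd1, which clears wrongly loaded alanine tRNA, differed by 0.38 (SE 0.14, limma adjusted p = 0.317) without overlap, and Dtd1, a deacylase for D-amino acids, by -0.02.

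Mitochondrial factors that deliver or modify loaded tRNA were positive in 6 of 6 genes above the filter, with a median of 0.24, and 3 had groups that did not overlap (10.9% of all probe sets), a count that was 0 on the signals as deposited. Gfm1, a mitochondrial elongation factor, had 363, 332 and 437 in the control pools and 568, 530.3 and 483 in the UDCA pools. Its UDCA pools were all the higher ones, by 0.47 (SE 0.13, limma adjusted p = 0.284). The next genes of that list were Gfm2, another elongation factor, at 0.23, and Qrsl1 and Gatc, subunits of the enzyme that amidates glutamine tRNA, at 0.27 and 0.24. For tRNA processing and export, 12 of 17 genes above the filter were positive, with a median of 0.15, 4 listed as higher at an unadjusted p under 0.05 (6.98% of all probe sets) and 5 without overlap (10.9%). On the signals as deposited these counts were 0 and 1, and with arrays scaled to a common trimmed mean 3 and 2. Xpot, the exporter of tRNA from the nucleus, had 144, 147 and 183 against 218, 213 and 189.5, wholly separate groups, with a difference of 0.36 (SE 0.13, limma adjusted p = 0.314). Dus1l and Elac2 gave 0.31 each and Pop5 0.27, the first modifying tRNA bases and the other pair taking part in trimming tRNA ends.

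Among probe sets above the filter, the choice of probe set did not alter the sign of any gene. The 26 genes had 48 probe sets, of which 41 were above the filter, and all 16 further probe sets above the filter, in 11 genes, had the sign of the probe set used. For 12 genes there was a single probe set.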

How the data were processed

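The data are 6 Affymetrix arrays of pooled mouse colon RNA. Per the labels' protocols, Trizol-extracted total RNA (3 µg) was turned into biotinylated cRNA. The authors deposited 1 linear signal intensity per probe set. The submitters' processing notes name GCOS; no version or scaling target was given in the sources used here. The authors' table of group folds was not used.

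The 64 Affymetrix controls were left out and 22626 probe sets were quantile-normalized with limma 3.58.1 in R 4.3.3, since the deposited levels differed between arrays. The test was lmFit and eBayes with an intensity trend on log2(signal + 16), two-sided, over the upper 50% of probe sets by mean log2 value (11313), adjusted by Benjamini-Hochberg at a threshold of 0.05. Folds on this scale understate differences of dim genes. The number of arrays limits precision, and p-values measure the spread between pools. The procedure was tested on simulated data, where it passed 80.9% of the smaller and 97.4% of the larger planted changes. All planted changes were larger than any synthetase difference. The simulation therefore does not show how often differences of the synthetases' size would pass.

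The platform table gave 20393 probe sets 1 symbol, 691 several and 1606 none; the last 2 kinds were not named. Genes of the lists that carry no name there were not analysed here. Full statistics were given for the 6 members of smallest p, those whose groups do not overlap, and Wars, Aars, Gars, Asns and Atf4, and in each partner list up to 4 genes of smallest p were named. Ddit3, the other listed genes of the amino acid response and those below the filter there were named outside this rule, after their values were seen. The members, lists and tests were chosen with earlier results of these data known. Alternatives covered scaling, pseudocount (1 and 64), filter, trend, threshold, probe set, pool number and left-out arrays.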

Additional observations from a re-analysis of the deposited data

How the results depend on the processing

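No synthetase gene passed the threshold under any alternative run, with the smallest adjusted p by limma at 0.145 without control pool 5+6 and 0.696 without control pool 1+2, the extremes of the left-out arrays. The median log2 difference of the synthetases was 0.257 on the signals as deposited and 0.248 with arrays scaled to a common median. The cytosolic minus mitochondrial gap was 0.316 under both of these, 0.315 with a common trimmed mean, 0.158 without the filter, 0.187 with the mean of all probe sets of a gene, and 0.121 to 0.316 with an array left out. As deposited, 0 synthetases had UDCA pools wholly above the control pools, 3 had an unadjusted p under 0.05, and 2 partner genes, Gbp2 and Gbp7, passed the threshold; this count of separate groups, an alternative chosen after seeing the data, was 11 with a common trimmed mean (9.11% of all probe sets), 13 with a common median (18.4%) and 13 to 14 with an array left out (13.8% to 20.5%), against 13 and 10.9% in the fit as reported, so it stood less far above the background share under the last 2 of these. Signs of 5 small differences turned as deposited and with a common median, respectively to 0.064 and 0.055 for Eprs, 0.011 and 0.002 for Fars2, 0.048 and 0.039 for Kars, 0.026 and 0.017 for Lars, and 0.075 and 0.066 for Qars. With an array left out, Ears2 ran from -0.151 to 0.127, Eprs from -0.06 to 0.034, Farsb from -0.027 to 0.221, Lars from -0.118 to 0.037 and Qars from -0.089 to 0.057. In all, 10 of 242 gene values turned sign under these and the other settings and 7 of 150 with an array left out; the cause was not tested. Over all probe sets, the count past the threshold was 1 in the fit as reported, 78 as deposited, 36 without control pool 5+6, 4 without UDCA pool 5+6 and 0 without each of the other arrays, without the filter and with the upper 25% by mean. The deviations of same-numbered pools correlated at -0.10, 0.16 and 0.05, and not each pool correlated best with its own number. With so few pools these values cannot decide whether same-numbered pools share more than a number. With the pool number as a replicate block 0 synthetases passed, the median was 0.171 and 0 of all probe sets passed.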
